A study of Gallus gallus with 14 samples.

Results

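The heat shock genes described here were 10 genes chosen by symbol, HSP90AA1, HSP90AB1, HSPA8, HSPA2, HSPH1, DNAJA1, BAG3, HSPD1, HSPE1 and HSF2, out of 18631 genes listed. All 10 passed the filter on low values, as did 14259 genes in all. The RNA-seq libraries came from the retina of White Leghorn chickens, labelled wild type, with 7 libraries from control retinas and 7 from retinas of eyes that had worn a -10 D lens for 3 days, a treatment that makes the eye grow too long (lens-induced myopia). The lens was fitted at 3 days of age, and the age label of every library is postnatal day 3. The labels name no separate animals, no sex and not whether control retinas came from fellow eyes, so p-values measure the spread between these libraries only.

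Heat shock proteins are chaperones that bind unfolded or unstable proteins and help them fold, assemble or be degraded. In the cytosol, J proteins deliver clients to HSP70, exchange factors such as HSPH1 and BAG3 release them, and HSP90 takes over later steps with its own co-chaperones. In mitochondria the HSP60 and HSP10 rings (HSPD1 and HSPE1) enclose single proteins while they fold. Heat shock factors are the transcription factors that raise chaperone genes under stress. In neurons, such as those of the retina, HSPA8 also strips clathrin from vesicles together with the J protein auxilin.

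Values are CPM as deposited, that is, the reads of a gene scaled by the total reads of its library. One read was worth 0.0241 to 0.0324 CPM, which puts the libraries at 30.8 to 41.4 M reads, of which the listed genes held 9.68 to 13.8 M reads. A count of 0 therefore allows up to 0.0724 to 0.0973 CPM by the rule of 3 counts, for counting error only. Of 10 retina markers, 9 stood at 2 CPM or more in mean, ONECUT1 being under that level, and their summed level was 967 to 1332 CPM in control and 808 to 1273 CPM in lens libraries. Of 8 pigment epithelium markers, RPE65 and RLBP1 stood at 2 CPM or more. The summed level of the 8 was 34.1 to 46.1 CPM in control and 29.3 to 44.6 CPM in lens libraries. RLBP1 is also among the 10 retina markers, so this sum is not a measure of pigment epithelium alone. Of 10 red blood cell markers only 1, SLC4A1, was among the genes listed, and it was at 0.0549 CPM or less throughout. The globin genes of that set were not listed, so blood RNA could not be judged from them. RNA of the W chromosome, which female birds carry, was read from HINTW. It stood at 116.8 to 145 CPM in 4 of 7 control and 1 of 7 lens libraries and at 0.0243 to 0.549 CPM in the others (Fisher's exact test of the uneven split, two-sided, p = 0.266). The part of this imbalance, and of the marker levels, in the treatment results was not tested beyond the fits given beside them.

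No heat shock gene passed the test of lens against control. With limma, 0 of the 10 had an adjusted p under 0.05, where 11 of 14259 genes tested did (0.0771%). At an unadjusted p under 0.05, 2 of the 10 were found, BAG3 and HSPA2, both lower with the lens, against 10.5% of all genes tested that were lower and 13.5% in either direction. That background leaned lower with the deposited scaling, with 432 genes higher and 1498 lower, but was 929 higher and 983 lower under median ratio scaling and 881 and 985 under quantile normalization. Voom on estimated reads called 0 of the 10 and 8 of 14259 genes. The exact Wilcoxon test called 0 of 14259 genes, so its 0 of the 10 is no separate result about the members. Each had 2 of the 10 at an unadjusted p under 0.05, where 1975 of all genes were by voom and 1442 by the Wilcoxon test. Of the 10 log2 fold changes 8 lay below 0, where 63.3% of all genes did, with a median of -0.11 beside -0.04 over all genes; HSPH1 turned above 0 under median ratio scaling and HSPE1 under that and under quantile normalization, and the members' median was then -0.06 and -0.10. No member had groups that did not overlap, a separation that 0.266% of all genes showed. Partial separations, given by gene below, were not counted over all genes. In whole retina, fewer cells of a type and less RNA per cell cannot be told apart.

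**Figure D1:**
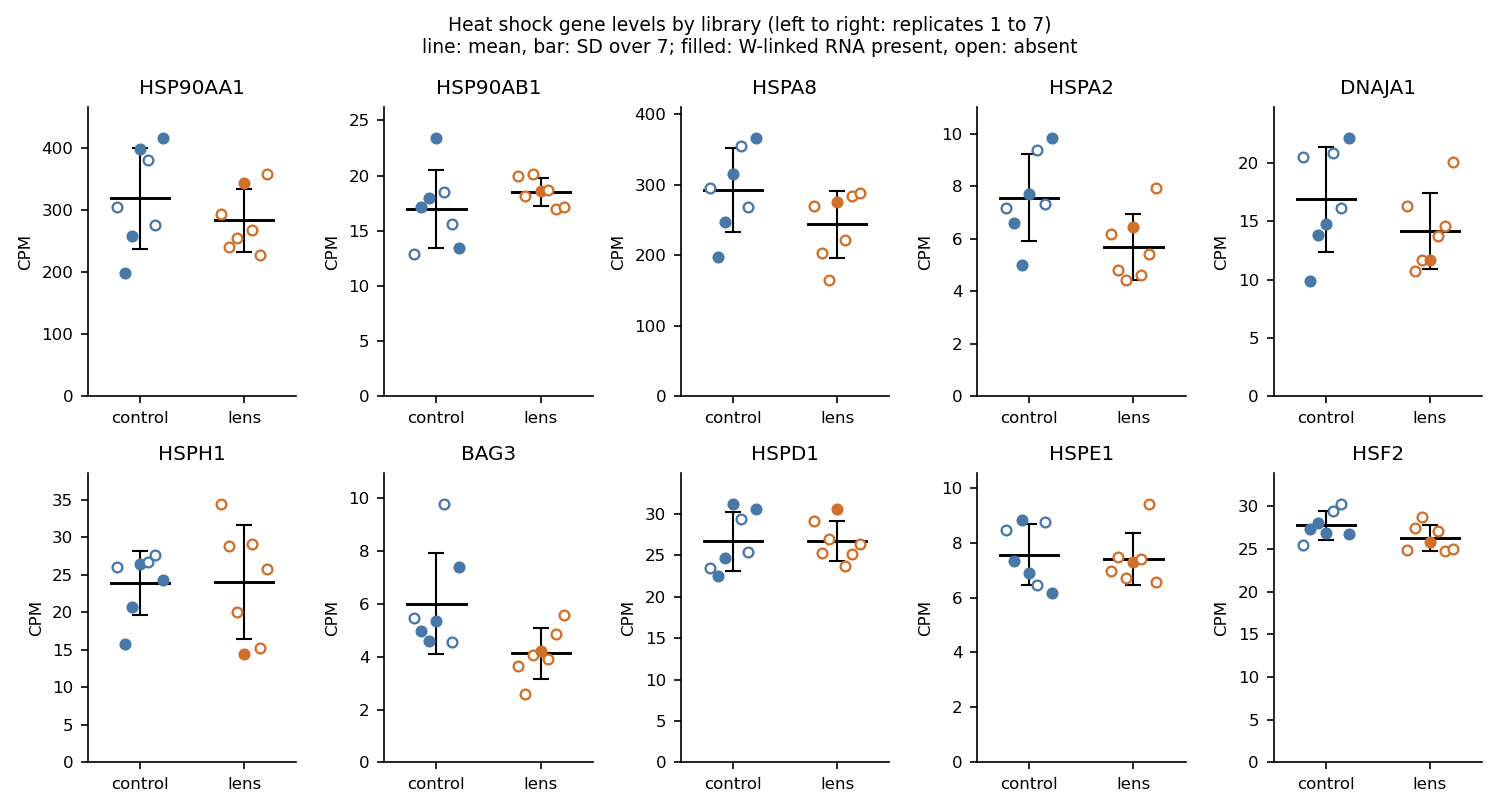
Level of each heat shock gene in CPM (y axis from 0) in the 7 control and 7 lens libraries, with a point per library, a line for the mean and a bar for the SD; filled points carry W-linked RNA. The groups overlap in every panel. In HSPA8 all 7 lens libraries lie below the control median, a pattern that was not counted over all genes.

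HSP90AA1 encodes the inducible cytosolic HSP90 and lies on the minus strand of chromosome 5, from 49679064 to 49684242 (GRCg6a). Its level was lowest at 199.5 CPM, median 305 CPM and highest at 417 CPM in control libraries. In lens libraries the lowest was 229 CPM, the median 268 CPM and the highest 358 CPM. The highest 3 values were control libraries (4, 5 and 7), yet the lowest of all was also a control library (2), so the lens range lay inside the control range. The means were 319 ± 81.4 CPM (SD, n = 7) in control and 284 ± 50.5 CPM (n = 7) in lens libraries, a log2 fold change of -0.14 (SE 0.14, limma adjusted p = 0.690).

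HSP90AB1, the constitutive cytosolic HSP90, on chromosome 3 (30393089 to 30399048), was the member with the largest fold change above 0. It ranged from 12.9 to 23.4 CPM (median 17.1) in control and from 16.96 to 20.2 CPM (median 18.6) in lens libraries. Here the control libraries lay on both sides of the lens range, 3 below it and 1 above. The means of 16.99 ± 3.54 and 18.5 ± 1.248 CPM differed by 0.14 on the log2 scale (SE 0.099, adjusted p = 0.563). Per kilobase of annotated gene span, introns included, HSP90AA1 stood at 61.7 CPM and HSP90AB1 at 2.85 CPM in control retina, the inducible gene thus reading far above the constitutive one on this scale.

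HSPA8, the constitutive HSC70, lies on chromosome 24 (3102900 to 3107843), where 2 unnamed loci on the same strand overlap it and may share reads. Levels were 198, 296 and 366 CPM (lowest, median, highest) in control and 165, 269 and 288 CPM in lens libraries. All 7 lens libraries were below the control median and 4 control libraries lay above the highest lens value. The means were 292 ± 59.6 and 244 ± 47.3 CPM (n = 7 each), with a log2 fold change of -0.26 (SE 0.14), an unadjusted p of 0.0745 and an adjusted p of 0.416 (limma).

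HSPA2 is the HSP70 family gene to which RefSeq gives the synonym HSP70, on chromosome 5 (53058059 to 53060379). It stood at 4.99, 7.33 and 9.84 CPM (lowest, median, highest) in control and at 4.43, 5.41 and 7.92 CPM in lens libraries. Lens libraries 2, 3 and 5 lay below every control library and control libraries 5 and 7 above every lens library. The means of 7.57 ± 1.65 and 5.70 ± 1.246 CPM gave a log2 fold change of -0.35 (SE 0.13), with an unadjusted p of 0.0152 and an adjusted p of 0.257.

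BAG3 encodes an exchange factor of HSP70 that also hands clients to autophagy; it lies on chromosome 6 (31229092 to 31247002). Its level was 4.56 CPM at the lowest, 5.34 CPM at the median and 9.77 CPM at the highest in control libraries. The lens libraries gave 2.57, 4.06 and 5.59 CPM for the same measures. Of the 7 lens libraries 5 lay below the lowest control library, and control libraries 5 and 7 stood above every lens library. Means were 6.01 ± 1.91 and 4.12 ± 0.950 CPM, the largest fold change among the 10 (log2 -0.44, SE 0.15, unadjusted p = 0.00980, adjusted p = 0.224). The gene was read thinly, with 98 to 379 reads per library, which alone gives a counting spread of 7.25% on average. The observed spread over the 14 libraries was 34.6%.

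DNAJA1, an HSP40 J protein that brings clients to HSP70, is the only member on the Z chromosome (70798137 to 70805869). It stood at 9.86, 16.2 and 22.1 CPM (lowest, median, highest) in control and at 10.8, 13.8 and 20.1 CPM in lens libraries, so that the lens range again lay inside the control range. The log2 fold change was -0.22 (SE 0.16, adjusted p = 0.544). HSPH1, the HSP110 exchange factor on chromosome 1 (176342852 to 176364945), ranged from 15.7 to 27.6 CPM in control and from 14.4 to 34.4 CPM in lens libraries. Lens libraries stood on both sides of the control range, with 3 above it (1, 2 and 5) and 2 below it (4 and 6), and the means were 23.9 ± 4.27 and 24.0 ± 7.60 CPM. The fold change, a difference of mean log2 values, had the opposite sign to the difference of these means, at -0.04 (SE 0.17, adjusted p = 0.945).

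The mitochondrial pair sat at fold changes near 0. HSPD1 (HSP60) had means of 26.7 ± 3.56 CPM in control and 26.7 ± 2.41 CPM in lens libraries (log2 fold change 0.01, SE 0.079, adjusted p = 0.979). HSPE1 (HSP10) had 7.56 ± 1.11 and 7.40 ± 0.951 CPM (log2 fold change -0.02, SE 0.093, adjusted p = 0.936). The 2 genes share a locus on chromosome 7: HSPD1 (10221920 to 10231187, minus strand) lies wholly within the annotated span of HSPE1 (10214101 to 10235997, plus strand). Whether the counting used strand is not given in the sources used here, so reads of the overlap cannot be told apart. HSF2, a heat shock factor on chromosome 3 (61387823 to 61409040), was the steadiest member, at 25.5 to 30.3 CPM in control and 24.8 to 28.7 CPM in lens libraries (log2 fold change -0.08, SE 0.053, adjusted p = 0.530).

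Because W-linked RNA was unevenly spread over the groups, the lens contrast was refitted with it as a covariate and again in the 9 libraries without it, 3 control and 6 lens. No member passed in either fit. BAG3 stood at a log2 fold change of -0.47 (adjusted p = 0.319) with the covariate and at -0.54 (adjusted p = 0.547) in the 9 libraries. HSPA2 gave -0.36 and -0.46, HSPA8 -0.27 and -0.38. DNAJA1 went from -0.22 to -0.37 with the covariate and -0.39 in the 9 libraries, and HSPH1 from -0.04 to -0.23 and -0.11. Before adjustment, 3 of 10 members had a p under 0.05 with the covariate and 5 of 10 in the 9 libraries, where 11.2% and 8.08% of all genes tested did. Several members rose and fell together over the libraries, as given below, so the members are not independent counts. The 9 libraries also hold only 3 controls.

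**Figure D2:**
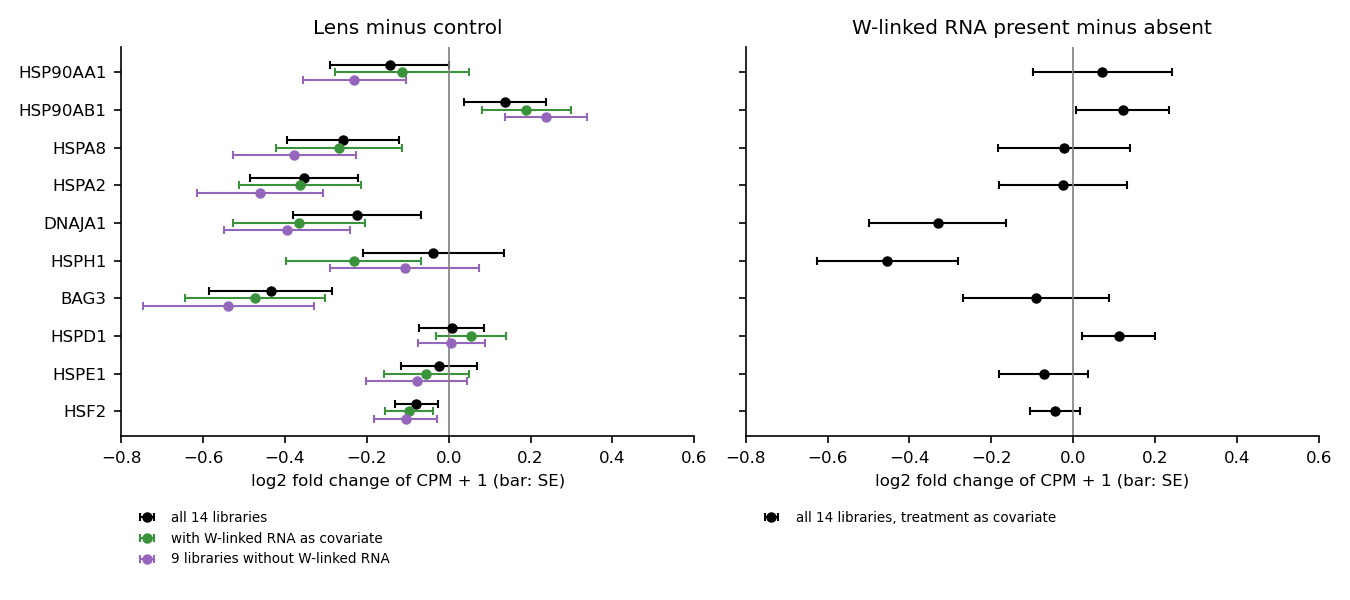
Log2 fold change of CPM + 1 for each heat shock gene with its SE, for lens minus control (left: all 14 libraries, with W-linked RNA as covariate, and the 9 libraries without it) and for W-linked RNA present minus absent (right). BAG3, HSPA2 and HSPA8 lie below 0 in all 3 lens fits, HSP90AB1 lies above 0, and HSPH1 and DNAJA1 are lowest on the right.

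Between libraries with and without W-linked RNA, treatment being a covariate, again 0 of 10 members passed, beside 376 of 14259 genes tested (2.64%), of which 347 lie on Z or W. One member, HSPH1, had an unadjusted p under 0.05, where 10.6% of all genes did. HSPH1 had a median of 20.8 CPM (SD 5.24, n = 5) with W-linked RNA and of 26.7 CPM (SD 5.51, n = 9) without, and a log2 fold change of -0.45 (SE 0.17, unadjusted p = 0.0167, adjusted p = 0.294 by limma). The groups overlapped, since lens library 6, which lacks W-linked RNA, was at 15.3 CPM. Without lens library 6 the adjusted p was 0.0932. Lens library 4, the only lens library with W-linked RNA, held the lowest HSPH1 level of all, 14.4 CPM. Without it no member had an unadjusted p under 0.05, the lowest limma adjusted p of any member being 0.529.

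DNAJA1 lay near the other Z-linked genes in this contrast. It averaged 14.5 ± 4.69 CPM with and 16.1 ± 3.76 CPM without W-linked RNA. Its log2 fold change of -0.33 (SE 0.17, adjusted p = 0.513) did not pass, and stood beside a median of -0.37 over 665 Z genes tested and 0.03 over autosomal genes. The other 8 members had log2 fold changes between -0.09 and 0.12.

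The members differed in how much they varied from library to library. BAG3 had the largest coefficient of variation over the 14 libraries, 34.6%, with a 3.80-fold range. DNAJA1, HSPA2, HSPH1, HSP90AA1 and HSPA8 followed at 25.9%, 25.8%, 24.7%, 22.4% and 21.4%. HSP90AB1 (15.0%), HSPE1 (13.3%) and HSPD1 (10.9%) lay near the median of 12.7% over the 9630 tested genes at 2 CPM or more. HSF2 had 6.398%, with a 1.22-fold range, and 8.54% of those genes had a lower value. For BAG3 that share was 97.7%, and for HSP90AA1 86.3%.

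Part of this variation was shared. Of the 45 pairs of members, 10 had a Pearson correlation over the 14 libraries with a permutation p, adjusted over the 45 pairs, under 0.05, and all 10 were positive. They joined HSP90AA1, HSPA8, HSPA2, DNAJA1, BAG3 and HSPD1. HSP90AB1, HSPH1, HSPE1 and HSF2 were in none. A correlation as high as the lowest of these (0.697) was reached by 2.56% of all pairs of genes at 2 CPM or more. The members' median r was 0.12, beside 0.061 over all those pairs.

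**Figure D3:**
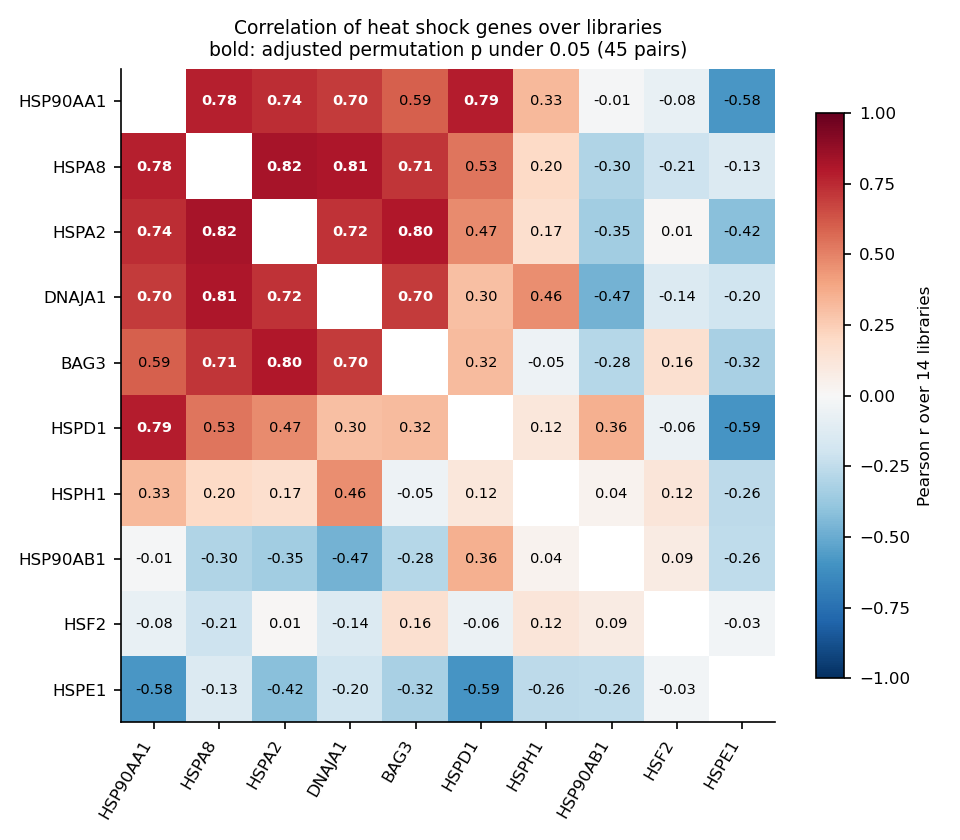
Pearson r of log2(CPM + 1) over 14 libraries for each pair of heat shock genes (colour scale from -1 to 1), with pairs whose adjusted permutation p is under 0.05 in bold. HSP90AA1, HSPA8, HSPA2, DNAJA1 and BAG3 form a block of positive values, HSPD1 joins through HSP90AA1, and HSPE1 is negative with every other gene.

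Control libraries 4, 5 and 7 held the 3 highest values of both HSP90AA1 and HSPA8, and control library 2 was lowest in HSP90AA1 and second lowest in HSPA8. The correlation of these genes was r = 0.776 (p = 0.00105, adjusted p = 0.0111, rho = 0.833, both by permutation), and 0.672 without the 2 libraries farthest from the HSP90AA1 median. HSPA8 and HSPA2 gave the highest r, 0.825 (adjusted permutation p = 0.00750), and 0.908 without the 2 farthest libraries. HSPA8 and DNAJA1 gave 0.812 (adjusted permutation p = 0.00750), and HSPA2 and BAG3 0.803 (adjusted permutation p = 0.00750). HSP90AA1 and HSPD1, a cytosolic and a mitochondrial chaperone, gave 0.787 (adjusted permutation p = 0.0111). The weakest without its 2 farthest libraries was HSP90AA1 with DNAJA1, at 0.508 from 0.701.

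All 10 pairs were positive within each smaller set of libraries. The pairs were picked for their r over the same 14 libraries, of which these sets are parts, so the signs are no separate result. The r lay between 0.643 and 0.970 within control libraries and between 0.473 and 0.821 within lens libraries (n = 7 each). It lay between 0.450 and 0.905 in the 9 libraries without W-linked RNA, and above 0 in both sets of libraries that share the last letter of their sample code. On residuals after treatment and W-linked RNA, 9 of the 10 passed, HSPA8 with BAG3 being at an adjusted permutation p of 0.0538. The count fell to 5 pairs without control library 5, without control library 7 or without lens library 2. Against all 9629 other genes at 2 CPM or more, none of the 9 members passed for HSP90AA1 once p was adjusted over those genes, the lowest adjusted permutation p being 0.105 for HSPA8 and HSPD1.

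Members that share a function did not all vary together. HSP90AA1 and HSP90AB1 had r = -0.01 (adjusted permutation p = 0.969). HSPD1 and HSPE1 had r = -0.59 (adjusted permutation p = 0.105) and rho = -0.657 (adjusted permutation p = 0.0495). HSP90AA1 and HSPE1 likewise had rho = -0.657 (adjusted permutation p = 0.0495) and r = -0.58 (adjusted permutation p = 0.111). HSPD1 lies within the span of HSPE1 on the other strand, and reads of the overlap cannot be told apart. The part of this overlap in the correlations of HSPE1 was not tested. HSP90AA1 had no correlation past the threshold with library measures, in a family of 4 (adjusted permutation p of 0.809 to 0.824). The r was 0.239 with total reads and 0.0657 with the column sum. It was -0.151 with the summed retina markers and -0.341 with the summed pigment epithelium markers, sums that both hold RLBP1.

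**Figure D4:**
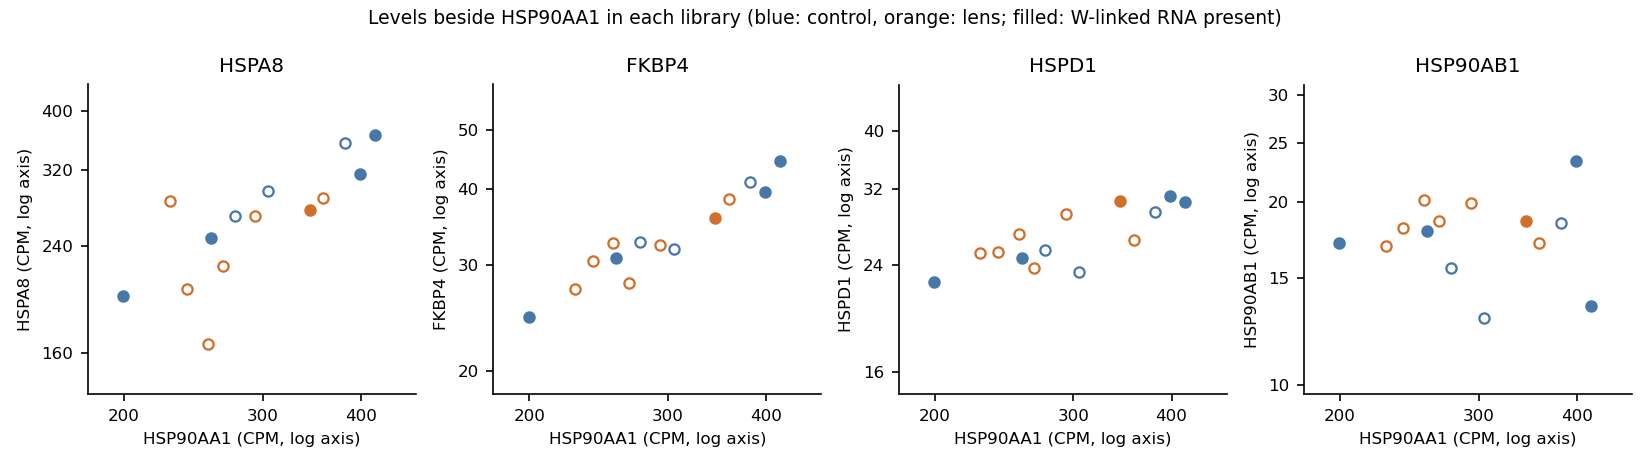
Levels of HSPA8, FKBP4, HSPD1 and HSP90AB1 (CPM, log axis) against HSP90AA1 (CPM, log axis), with a point per library, control in blue, lens in orange and filled where W-linked RNA was present. FKBP4 follows HSP90AA1 most closely (r = 0.954), while HSP90AB1 shows no slope (r = -0.01).

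The wider chaperone system was described with 8 lists of 122 genes, of which 107 were listed and 102 tested. HSPA1A, HSPA1B, HSPA6, DNAJB1, HSPB1, HSP25 and HSP30C were among those not tested, so the lists say nothing of them. The 4 small heat shock proteins tested, HSPB8, HSPB9, HSPB11 and CRYAB, each had means under 2 CPM in both groups. None of the list genes tested passed the adjusted threshold for lens against control (limma, 0 of 102). They were 15 HSP90 co-chaperones, 17 J proteins, 14 HSP70 family genes and exchange factors and 10 heat shock factors and regulators. The others were 4 small heat shock proteins, 13 mitochondrial chaperones and proteases, 14 TRiC and prefoldin list genes and 15 other heat-inducible genes. Before adjustment, 2 genes were higher and 11 lower (10.8%) at a p under 0.05, a share of lower genes close to the 10.5% over all genes tested. The 2 higher genes, DNAJC21 and TXNL1, are Z-linked. Over all Z genes tested the median lens log2 fold change was 0.17, and -0.004 with W-linked RNA as covariate. By list the median log2 fold changes lay between -0.06 for the HSP70 list and 0.01 for the HSP90 co-chaperones, with -0.04 over all genes.

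Among HSP90 co-chaperones, 8 lay above and 7 below 0. STIP1, which links HSP70 to HSP90, had means of 3.19 ± 1.035 CPM in control and 2.29 ± 0.710 CPM in lens libraries (n = 7 each, log2 fold change -0.33, adjusted p = 0.392). PTGES3 (p23), which stabilizes closed HSP90, had -0.23 (adjusted p = 0.435), and AHSA1, which speeds its ATPase, -0.12 (adjusted p = 0.493). Among J proteins, DNAJC6 (auxilin), which uncoats clathrin vesicles with HSPA8, had 54.0 ± 3.62 and 46.3 ± 4.24 CPM (log2 fold change -0.22, SE 0.061, adjusted p = 0.163). DNAJC21 and DNAJC13 lay above 0, at 0.39 and 0.10 (adjusted p = 0.203 and 0.437); DNAJC21 is Z-linked.

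Of the HSP70 list 11 of 14 lay below 0. STUB1, the ubiquitin ligase that marks HSP70 clients, had 8.47 ± 1.17 CPM in control and 6.96 ± 0.997 CPM in lens libraries; its log2 fold change was -0.25 (adjusted p = 0.262). BAG4 had -0.32 (adjusted p = 0.275) and HSPA14 0.16 (adjusted p = 0.438). In the list of regulators, the acetyltransferase genes CREBBP and EP300 had -0.30 and -0.21 (adjusted p = 0.196 and 0.203), and HSBP1, whose product binds heat shock factor trimers, 0.12 (adjusted p = 0.410). In the list of prefoldin and the TRiC ring, which folds actin and tubulin, 6 genes lay above and 8 below 0. The list median was -0.05, beside -0.04 over all genes. The 3 genes with the smallest p were CCT2 at -0.22, CCT3 at -0.27 and CCT6A at -0.15 (limma adjusted p = 0.208, 0.347 and 0.367).

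In the mitochondrial list GRPEL1, the exchange factor of mitochondrial HSP70, had 8.94 ± 1.00 CPM in control and 7.57 ± 0.905 CPM in lens libraries (log2 fold change -0.21, adjusted p = 0.276). HTRA2, a protease, had -0.18 (adjusted p = 0.416) and TIMM44, which ties HSP70 to the import channel, 0.17 (adjusted p = 0.431). The lowest adjusted p in all 8 lists, 0.144, belonged to HSPA5, the endoplasmic reticulum HSP70, at 48.4 ± 8.68 and 35.6 ± 6.99 CPM (log2 fold change -0.44, SE 0.12). CRY2, a clock gene, had -0.20 (limma adjusted p = 0.196) and TXNL1, which is Z-linked, 0.40 (limma adjusted p = 0.249).

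Between libraries with and without W-linked RNA, 2 of the 102 list genes passed (1.96%), a share below the 2.64% over all genes tested. Both are among the 5 Z-linked list genes and were lower where W-linked RNA was present. VCP, an ATPase that extracts proteins for degradation, fell from 18.5 ± 2.03 CPM (n = 9) to 13.2 ± 2.05 CPM (n = 5), a log2 fold change of -0.56 (limma adjusted p = 0.000418). TXNL1, a thioredoxin-like proteasome partner, fell from 14.2 ± 1.34 to 8.34 ± 0.864 CPM, with a log2 fold change of -0.65 (adjusted p = 3.83e-05).

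The gene that followed HSP90AA1 most closely was one of its own co-chaperones. FKBP4 (FKBP52), an immunophilin that binds HSP90 and serves steroid receptors, had the highest r of all 9629 genes at 2 CPM or more. It stood at 24.6 CPM in control library 2 and at 44.4 CPM in control library 7, the libraries in which HSP90AA1 was lowest and highest. Its r of 0.954 had a permutation p of 1e-05, the smallest the 100000 permutations can give, and an adjusted p of 0.0193 over those 9629 genes. Without the 2 libraries farthest from the HSP90AA1 median r was 0.922, within control libraries 0.980, within lens libraries 0.881, and on residuals after treatment and W-linked RNA 0.952. FKBP4 was picked for its r over these same libraries, so the values describe its spread over them and are no separate result.

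Over all 85 list genes at 2 CPM or more, 4 passed at an adjusted permutation p under 0.05, where 21 of 9629 genes did (0.218%). DNAJA4, a J protein, had r = 0.905 (rank 4, adjusted permutation p = 0.0193). HSPA4, an HSP110 exchange factor, had r = 0.904 (rank 5, adjusted permutation p = 0.0241). SUGT1, an HSP90 co-chaperone, had r = 0.855 (rank 15, adjusted permutation p = 0.0370). By Spearman's rho, from 0.851 to 0.908 for the 4, none of the 9629 genes passed, the lowest adjusted permutation p being 0.0963. Over 9629 genes a lone gene at the smallest permutation p, 1e-05, could not pass. Passing thus depends on several genes lying at or near that p, also for Pearson r and with 1 library left out. The relation to HSP90AA1 was looked for after values had been seen. Leaving out 1 library left FKBP4 past the threshold each time and 1 to 5 list genes in all. There was 1 without control library 3, and there were 2 without control library 2 or 7 or lens library 2 or 7. On residuals after treatment and W-linked RNA there were 9, but the genes passing over all 9629 also rose, from 21 to 216.

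**Figure D5:**
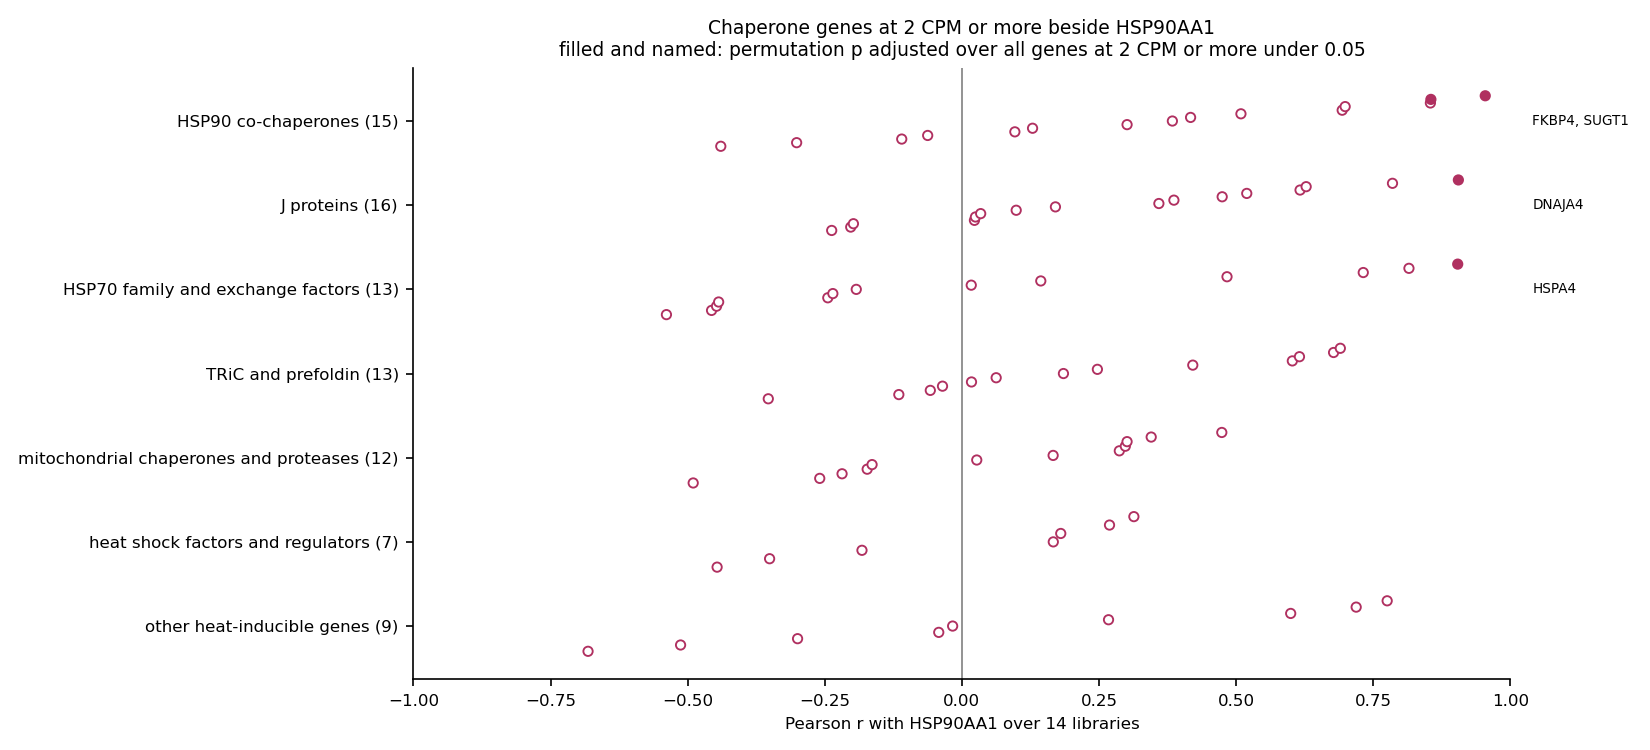
Pearson r with HSP90AA1 over 14 libraries (x axis) for 85 chaperone genes at 2 CPM or more, in rows by list with the number of genes, each point a gene. The filled points are FKBP4, SUGT1, DNAJA4 and HSPA4, which passed after adjustment over all genes at that level, while the lists other than HSP90 co-chaperones, J proteins and the HSP70 list hold none.

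An r of at least 0.697, the lowest of the called member pairs, was found for 11 of the 85 list genes, beside 181 of 9629 genes (1.88%). They comprised 4 of 15 HSP90 co-chaperones, FKBP4, SUGT1, AHSA2 and AHSA1, 3 of 13 HSP70 list genes, HSPA4, ST13 and HSPA4L, 2 of 16 J proteins, DNAJA4 and DNAJA2, and 2 of 9 other heat-inducible genes, ATF3 and CRY2. None of 13 TRiC and prefoldin, 12 mitochondrial or 7 regulator genes reached it. These 11 genes did not pass for lens against control either. Their log2 fold changes ran from -0.20 (CRY2) to 0.07 (DNAJA2), with 10 below 0, where 63.3% of all genes tested were. The genes were picked for following HSP90AA1, itself at -0.14, over the same libraries, so their signs are no separate result.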

How the data were processed

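The table deposited by the authors holds 1 normalized value per gene and library. These were read here as CPM + 0.0001 from the whole-read steps of the low values, and 0.0001 was subtracted from every value. The submitters' processing notes name STAR, Partek and GRCg6a. Versions, annotation, counting and use of strand are not given in the sources used here. Libraries were made with a stranded total RNA kit after ribosomal RNA depletion, per the labels' protocols. Of low values, 93.0 to 93.8% per library lay within 0.02 of a whole multiple of 1 read, from which total reads were estimated.

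Genes with at least 7 libraries at or above 0.5 CPM computed on the column sum (0.152 to 0.167 CPM as deposited) were tested with limma 3.58.1 in R 4.3.3, with trend, on log2(CPM + 1), all p-values two-sided and adjusted by Benjamini-Hochberg over 14259 genes. Fold changes on this scale understate those of low genes. W-linked RNA was called where HINTW exceeded 5 CPM, as a stand-in for sex. Chromosomes for Z-linked genes came from RefSeq GRCg7b by symbol, with 15419 of 18631 symbols matched; no coordinates were taken from it. Correlations used 100000 permutations in Python 3.11.15 with NumPy 2.4.6. Both tests were checked on simulated data. In the simulated lens contrast limma recovered 28 of 67 genes changed 1.25-fold, 63 of 67 changed 1.5-fold and 66 of 66 changed 2-fold. The simulation had 166 calls where the real contrast had 11, so its adjusted threshold was easier to pass. These shares therefore overstate what the real contrast could recover. Missing the threshold therefore does not show that a gene was unchanged. The text names all 10 members, up to 3 genes of each list with the smallest lens p at a mean of at least 2 CPM in the higher group, list genes past the threshold, and the 5 genes most like the members; the relation of list genes to HSP90AA1 was added after values were seen. Members and lists were chosen with earlier results of these data known. Alternatives changed the pseudocount, filter, scaling, test, covariates and libraries. Sequences were not used here.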

Additional observations from a re-analysis of the deposited data

Results flagged for a closer look

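In 64 sets of 7 libraries (32 named genes in each group), 4 held a library whose gap to its nearest neighbour was large for the range of its group; chance gives about 1 in 20. HSPE1 in lens library 6 was at 9.40 CPM, with the next lens library at 7.48 CPM. GRPEL1, also mitochondrial, in the same library was at 9.47 CPM, with the next at 7.90 CPM. AHSA1 in control library 7, the library with the highest HSP90AA1, was at 15.4 CPM, with the next control library at 12.5 CPM. DNAJC13 in control library 4 was at 72.3 CPM, with the next at 62.5 CPM.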

How the results depend on the processing

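No member passed for lens against control or by W-linked RNA under any alternative run, the lowest adjusted p being 0.159 and 0.0932. The 11 genes called for lens became 0 with no filter and under quantile normalization, and 1 under median ratio scaling. They were 2 in libraries without W-linked RNA, 17 with the last letter of the sample code and 19 with W-linked RNA as covariate. They ranged from 0 to 18 when 1 library was left out. The exact Wilcoxon test also called 0, with 1442 at an unadjusted p under 0.05. Its smallest p, set by 7 libraries per group, was reached only by the 38 genes whose groups did not overlap. These were too few for any gene to pass adjustment over 14259 genes. The 376 genes by W-linked RNA became 230 in control libraries only, and 317 to 389 with 1 library left out. The 10 called pairs were 5 to 11 with 1 library left out. The 4 list genes called beside HSP90AA1 became 9 on residuals, while the calls over all 9629 genes went from 21 to 216. With 1 library left out, 1 to 5 list genes were called. The cause of these shifts was not tested. Log2 fold changes near 0 turned: for lens, HSPH1 to 0.0131 and HSPE1 to 0.0229 under median ratio scaling, HSPE1 to 0.0237 under quantile normalization; by W-linked RNA, HSP90AA1 to -0.0649 in control libraries only, HSPA8 to 0.00551 under quantile normalization, and HSPA8 to 0.10, HSPA2 to 0.14, BAG3 to 0.13 and HSF2 to 0.00179 without the treatment covariate. With 1 library left out the lens values ran from -0.0306 to 0.0453 for HSPD1, -0.0760 to 0.0111 for HSPE1 and -0.13 to 0.0691 for HSPH1, and those by W-linked RNA from -0.20 to 0.0950 for BAG3, -0.0649 to 0.21 for HSP90AA1, -0.14 to 0.0774 for HSPA2 and -0.15 to 0.0879 for HSPA8. No paired analysis was possible because the labels carry no replicate numbers shared between the groups. A planned count test was not run because the values did not give whole reads for nearly all genes; voom on estimated reads took its place. Depth limits BAG3 (98 to 379 reads per library), HSPA2 (167 to 371) and HSPE1 (233 to 335) most.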

Other observations

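Outside the members, 8975 genes with a symbol at 2 CPM or more were ranked, list genes included. The ranking was by likeness to the mean standardized level of the 10 members over the 14 libraries. Not all members follow this mean. The r to the mean of the other members was -0.52 for HSPE1, -0.24 for HSP90AB1, -0.03 for HSF2 and 0.24 for HSPH1. For the rest it lay between 0.52 (HSPD1) and 0.80 (HSP90AA1). The 5 most alike began with KHDRBS3, an RNA-binding protein gene (r = 0.939), ADD1, a cytoskeletal adducin gene (0.921), and RBM12, an RNA-binding protein gene (0.917). SLC25A25, a mitochondrial carrier gene (0.909), and KIAA1324L (0.897) followed. On residuals after treatment and W-linked RNA these correlations were 0.936, 0.932, 0.897, 0.893 and 0.864. SLC25A25 ranged from 16.2 to 34.4 CPM over the libraries. The 5 were picked for their likeness, so the values are a description and carry no p.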
